A study of Rattus norvegicus with 9 samples.

Results

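The subject is a family of 30 small RNA sequences that carry the core of miR-127-3p, out of 5794 sequences listed with values in the small RNA libraries of the rat hippocampal CA1 region. An entry was taken as a member when it shared an exact run of at least 16 bases, on the same strand, with novel_11_x3752964, an 18 nt sequence equal to the start of miR-127-3p. All libraries came from adult male Wistar rats of 7 to 8 weeks. The groups are HPC0h (hour 0 in the label, with HPC not expanded), tGCI26h (transient global cerebral ischemia, hour 26 in the label) and Sham, with 3 libraries each. The labels name no transgene, drug or allele. Total RNA was ligated to adaptors, amplified and selected at the size that piRNAs, small RNAs bound by PIWI proteins, would give. MicroRNAs are shorter than piRNAs, so the forms listed depend on what passed this selection.

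The heading of a column gives no replicate number, and only the heading Sham is itself a group name. For the others the group was inferred from the first letters of the heading or the hour it carries. Every comparison between groups rests on this reading. In 7 libraries the heading holds 3 numbers, and these are called HPC0h a, b and c, tGCI26h a and b, and Sham a and b. The heading of the other 2, tGCI26h u and Sham u, holds no such numbers. These 2 stood apart from the rest, with 708 entries above 0 in tGCI26h u and 1201 in Sham u, against 2558 to 2936 in the numbered libraries. Values are tag counts that the authors normalised to totals of 961372 to 992081 and rounded, so the sequencing depth is unknown and a 0 or blank cell says only that no value of at least 1 was listed. The labels do not say whether libraries are animals, pools or repeats, so p-values measure only the spread between these libraries. Comparisons between groups are therefore given with and without tGCI26h u and Sham u.

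MicroRNAs are short RNAs cut from a hairpin by the nuclease Dicer and loaded into Argonaute proteins, where bases 2 to 8, the seed, select the messenger RNAs to be repressed. A shift of the 5′ end moves the seed, whereas 3′ ends vary by trimming and by added bases without changing it. In the mouse, miR-127 is transcribed from the maternal allele of the imprinted Dlk1-Dio3 region, antisense to Rtl1, a retrotransposon-derived gene that it represses. MicroRNAs of this region are known for their expression in brain and placenta.

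The mature sequence and the members that held nearly all tags are shown with the seed in capitals, 5′ to 3′, so that shifts of either end can be read directly. The mature sequence is that of RefSeq, at chr6:134328510-134328531 on the plus strand of GRCr8. The build used by the authors is not given in the sources used here, so no other position is stated.
miR-127-3p: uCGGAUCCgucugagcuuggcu
novel_175_x121470: uCGGAUCCgucugagcuuggc
novel_10902_x308: uCGGAUCCgucugagcuuggu
novel_44_x739592: uCGGAUCCgucugagcuugg
novel_29_x1276477: uCGGAUCCgucugagcuug
novel_11_x3752964: uCGGAUCCgucugagcuu
novel_10983_x305: aUCGGAUCcgucugagcuugg
novel_7586_x506: cUCGGAUCcgucugagcuugg
novel_7420_x521: cGGAUCCGucugagcuuggc

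Members measured 18 to 21 nt, so the longest was 1 base shorter than the 22 nt mature sequence. Compared with the RefSeq hairpin without gaps, 14 members matched at every base and 16 differed at 1 base. In novel_10902_x308 the difference was C21U, counted from 1 at the first base of the mature sequence, with the hairpin's base first. The same 3′ replacement by U occurred in novel_13182_x237 as G20U and in novel_9441_x372 as G19U. In novel_7586_x506 it was A-1C, at the base just before the mature start. By seed, 16 members carried that of the mature sequence, 8 had it shifted upstream by 1 base, 3 by 2 bases, 2 shifted downstream by 1 base and 1 by 2 bases.

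At least 1 tag was listed for 26 of the 30 members, and 4 were at 0 or blank throughout. Of the 26, 9 never exceeded 2 tags. A total of 18 members reached the mean of 1 tag over the 9 libraries that was required for testing. At the limit of the rule, 4 members shared a run of exactly 16 bases, led by novel_7485_x515 with at most 1 tag in any library. Just outside it, the 2 entries with a run of 15 were at 0 or blank in every library, and the most abundant of the 3 with a run of 14, novel_11935_x272, held at most 2 tags. No entry shared such a run with the opposite strand.

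One form dominated. novel_175_x121470, the mature sequence without its last base, held 23155, 21541 and 20071 tags in HPC0h a, b and c, 17475, 16321 and 3169 in tGCI26h a, b and u, and 21278, 19438 and 6383 in Sham a, b and u. The numbered libraries lay close together, with tGCI26h a and b lowest, and both unnumbered libraries were far below all of them. novel_10902_x308, which ends in U in place of C at the same length, held 15246, 14306 and 12684 tags in HPC0h, 11794, 10981 and 2582 in tGCI26h, and 13609, 13124 and 4448 in Sham, in the same library order. It followed novel_175_x121470 closely, at 63.2% to 67.5% of its value in the 7 numbered libraries, 81.5% in tGCI26h u and 69.7% in Sham u.

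**Figure D1:**
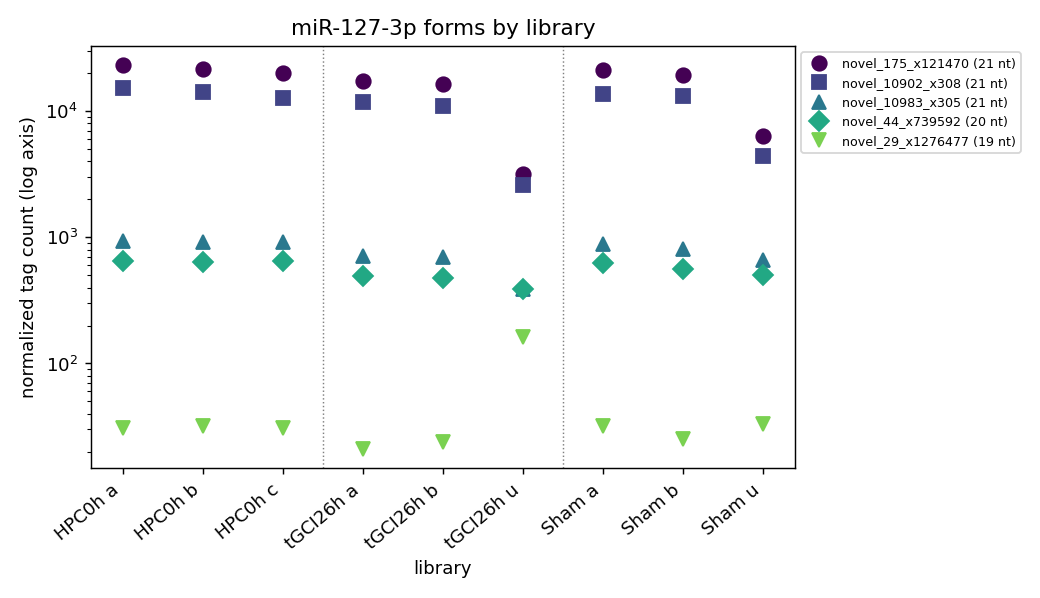
Normalised tag count on a log axis (vertical) of 5 miR-127-3p forms in each of the 9 libraries (horizontal), 1 point per form and library. Both forms of 21 nt that start at the mature 5′ end lie between 10981 and 23155 tags in every numbered library and between 2582 and 6383 in tGCI26h u and Sham u, whereas the 20 nt form moves far less.

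Values of the forms with the mature 5′ end fell at each step down in length. A longer form was never below a form inside it in this table, so on values this order was given in advance. It also held in every library on remainders, which are defined below. The 20 nt form novel_44_x739592 held 651, 642 and 653 tags in HPC0h, a mean of 485.5 in tGCI26h a and b with 391 in tGCI26h u, and 627, 561 and 500 in Sham. The 19 nt form novel_29_x1276477 held 31, 32 and 31 tags in HPC0h, 21, 24 and 161 in tGCI26h, and 32, 25 and 33 in Sham. The 18 nt form novel_11_x3752964 held 9, 9 and 8 tags in HPC0h, 5 and 6 in tGCI26h a and b, and 8 and 5 in Sham a and b, and was blank in both unnumbered libraries. The 20 nt form stood at 2.81% to 3.25% of the 21 nt form in the numbered libraries, at 12.3% in tGCI26h u and at 7.83% in Sham u. Both unnumbered libraries therefore held relatively more of the 20 nt form. In tGCI26h u the 19 nt form reached 41.2% of the 20 nt form, against 4.24% to 5.10% in the numbered libraries. These are shares of values. On remainders tGCI26h u held 161 tags of the 19 nt form, 230 of the 20 nt form and 2778 of the 21 nt form. Sham u held 33, 467 and 5863 in the same order. The number after the x in the names runs the other way, falling with each added base, and the file does not say what it counts.

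**Figure D2:**
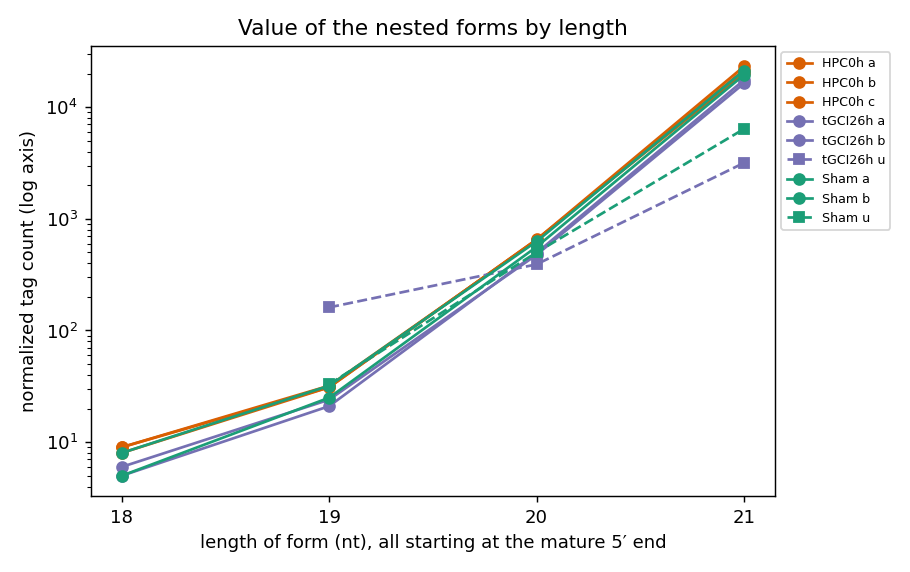
Normalised tag count on a log axis (vertical) of the 4 nested forms that start at the mature 5′ end and match the hairpin, by length in nt (horizontal), with 1 line per library. Solid lines are numbered libraries and dashed lines are tGCI26h u and Sham u, and a missing point is a blank cell. The 7 numbered libraries run together and climb steeply with length, and the dashed lines are flatter. Because a longer form was never below one inside it, no line could fall with length.

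Values of members were not independent of each other. Among 65 pairs in which 1 member lies wholly inside another, the longer one was at least as high as the shorter one in every library. The same held for all 23774 such pairs of the whole table, in each of the 9 libraries, although the rule by which the authors counted is not stated. A single tag may thus stand in several entries: novel_29_x1276477 and novel_4725_x991, which adds a C in front, had identical values in all 9 libraries, as did novel_11_x3752964 and novel_2332_x2703. A group of 8 members shared the values 1, 1 and 1 in HPC0h, 0 or blank in tGCI26h, and 1, 0 and 0 or blank in Sham. For this reason a remainder was computed for each entry, its value minus the remainders of all listed entries that it contains. It is an arithmetic quantity and came to -1 in some libraries for 2 members, novel_2332_x2703 and novel_5564_x783.

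By remainders the family held 38091, 35523 and 32410 tags in HPC0h a, b and c, 29019, 27089 and 5360 in tGCI26h a, b and u, and 34574, 32293 and 10501 in Sham a, b and u. That was 4.46% ± 0.319 of the remainders of all entries in HPC0h, 2.60% ± 1.60 in tGCI26h and 3.29% ± 1.54 in Sham (SD, n = 3 each). The low shares were those of tGCI26h u, at 0.759%, and Sham u, at 1.52%, whereas the numbered libraries held 4.15% to 4.79% in HPC0h, 3.40% and 3.64% in tGCI26h, and 4.03% and 4.32% in Sham. In whole tissue, fewer cells of a type and less RNA per cell cannot be told apart. novel_175_x121470 kept 22496, 20892 and 19410 of these tags in HPC0h, 16973, 15839 and 2778 in tGCI26h, and 20643, 18870 and 5863 in Sham. Together with novel_10902_x308 and novel_7420_x521, it ends at base 21 of the mature sequence. That 3′ end held 97.2% ± 0.187 of the family in HPC0h, 95.8% ± 2.69 in tGCI26h and 96.1% ± 2.14 in Sham, and 97.0% to 97.4% in the numbered libraries. The lower shares were those of tGCI26h u, at 92.7%, and Sham u, at 93.6%. The full 22 nt mature sequence was not listed and no member ended at its last base, so these shares concern only the ends listed.

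The 5′ end was nearly uniform. Members starting at the mature 5′ end held 99.1% to 99.2% of the remainders in the numbered libraries, 100% in tGCI26h u and 98.2% in Sham u. In the numbered libraries the rest was almost entirely novel_10983_x305, which starts 1 base upstream with the A of the hairpin and so carries a shifted seed. Its value was 941, 914 and 914 tags in HPC0h, 708, 700 and 391 in tGCI26h, and 892, 812 and 656 in Sham, but much of this is the 20 nt form inside it. Its remainder was 287, 268 and 257 tags in HPC0h, 211, 221 and 0 in tGCI26h, and 261, 249 and 144 in Sham. The variant with C at that place, novel_7586_x506, had values of 391 to 660 tags and remainders of only 0 to 14. novel_7420_x521, which starts 1 base downstream, held 6 to 8 tags in the numbered libraries, was blank in tGCI26h u and reached 20 in Sham u.

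miR-128-3p and miR-9a-5p, set beside miR-127-3p, divided their tags between ends in other proportions when entries were gathered by the same 16-base rule. The planned comparison with miR-99a-5p was not made, because its mature sequence was not in the reference used. For miR-128-3p, a brain microRNA, the mature 5′ end held 99.96% to 99.97% in the numbered libraries and the leading 3′ end 87.4% to 90.3%. For miR-9a-5p, a neural microRNA, the mature 5′ end held 94.1% to 94.8% and the leading 3′ end 68.6% to 72.5%. In the numbered libraries the miR-127-3p shares therefore lay outside both ranges for each end, a difference that was described and not tested. For the 3′ end the shares are not fully alike, because no listed form reached the last base of mature miR-127-3p. The leading 3′ end was the mature one for miR-9a-5p and 1 base beyond it for miR-128-3p. For both miR-127-3p and miR-128-3p the leading 3′ end was lower in tGCI26h u and Sham u than in any numbered library, at 67.0% and 71.1% for miR-128-3p. For miR-9a-5p it was 73.2% in tGCI26h u, above the numbered libraries, and 62.5% in Sham u.

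The 5′ arm of the same hairpin, from which a second microRNA is cut, was represented by 14 entries that share a run of at least 16 bases with the hairpin before the mature sequence. Its main form is shown with bases 2 to 8 in capitals because it went opposite to the 3′ arm in the unnumbered libraries.
novel_7008_x564: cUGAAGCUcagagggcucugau
This 22 nt form held 635, 798 and 687 tags in HPC0h, 491, 662 and 10549 in tGCI26h, and 636, 688 and 1027 in Sham. tGCI26h u was the highest of all libraries for the 5′ arm and the lowest for the 3′ arm, and Sham u was likewise above every numbered library for the 5′ arm and below every one for the 3′ arm. Of the remainders of both arms, the 5′ arm held 1.67%, 2.23% and 2.12% in HPC0h, 1.70%, 2.43% and 66.3% in tGCI26h, and 1.84%, 2.12% and 8.91% in Sham. Among the numbered libraries the groups overlapped. In limma over all entries novel_7008_x564 had a log2 change of -1.10 ± 1.13 (SE, adjusted p = 0.722) in HPC0h over tGCI26h, 0.98 ± 1.13 (adjusted p = 1) in tGCI26h over Sham and -0.12 ± 1.13 (adjusted p = 1) in HPC0h over Sham. All 3 signs were the opposite in the numbered libraries, at 0.30 ± 0.17 (limma adjusted p = 0.800), -0.21 ± 0.18 (limma adjusted p = 0.647) and 0.089 ± 0.17 (limma adjusted p = 0.852) in the same order.

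**Figure D3:**
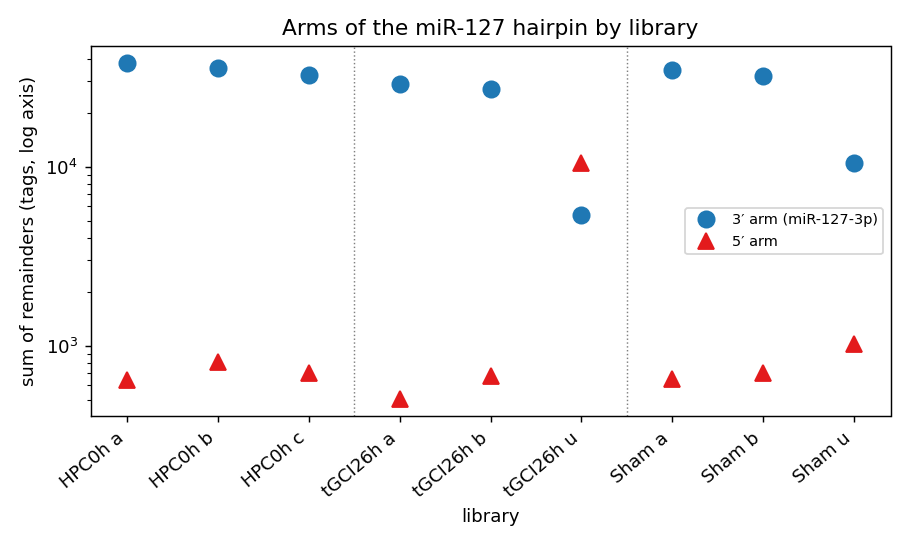
Sum of remainders in tags on a log axis (vertical) for the 30 entries of the 3′ arm and the 14 entries of the 5′ arm of the miR-127 hairpin, in each of the 9 libraries (horizontal). The 3′ arm is above the 5′ arm in 8 libraries, and in tGCI26h u the 5′ arm, at 10549, is above the 3′ arm, at 5360.

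The comparison of HPC0h with tGCI26h gave the widest separation of the main forms. novel_175_x121470 averaged 21589 ± 1543 tags in HPC0h and 12322 ± 7947 in tGCI26h (SD, n = 3 each), without overlap. Its log2 change, in a limma fit with trend on log2(value + 1) over the 2824 entries with a mean of at least 1, was 1.16 ± 0.67 (SE) with a Benjamini-Hochberg adjusted p = 0.722. novel_10902_x308 averaged 14079 ± 1296 and 8452 ± 5100 tags in the same order, with a log2 change of 1.02 ± 0.65 (limma adjusted p = 0.722). The median log2 change of the 18 tested members was 0.60 here and that of all tested entries was 0.72. The order of these medians depended on the scaling and the libraries, with 1.30 for the members and 0.77 for all entries under median-of-ratios scaling, and 1.08 and 0.55 under quantile normalisation. novel_11_x3752964, blank in tGCI26h u, had a log2 change of 1.47 ± 1.11 (limma adjusted p = 0.722), which was 0.74 with a pseudocount of 5 and 0.58 without that library. None of the 18 tested members passed, in a table where 0 of 2824 entries (0%) did and 8 had an unadjusted p below 0.05. Every HPC0h value was above every tGCI26h value for 10 of the 18 members, against 5.1% of all tested entries, and below for 0, against 1.31%, but these members contain one another and are not separate observations.

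Without the unnumbered library the same order remained with a smaller difference. tGCI26h a and b averaged 16898 tags of novel_175_x121470, against the HPC0h mean of 21589, a log2 change of 0.35 ± 0.08 (SE, limma over 2608 entries of the 7 numbered libraries, adjusted p = 0.506). The median was then 0.44 for the 18 members and 0.00 for all tested entries. For novel_10983_x305 the log2 change was 0.39 ± 0.05 (limma adjusted p = 0.135), and for novel_44_x739592 it was 0.42 ± 0.06 (limma adjusted p = 0.150). At an unadjusted p below 0.05, 12 of the 18 members stood higher, against 7.02% of all entries in either direction. None passed after adjustment, where 0.46% of all entries did. For 14 of 18 members both tGCI26h values lay below all 3 HPC0h values, against 8.25% of tested entries, and for 0 above them, against 3.33%. Here too the members contain one another and some have identical values, so neither count is one of separate observations.

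**Figure D4:**
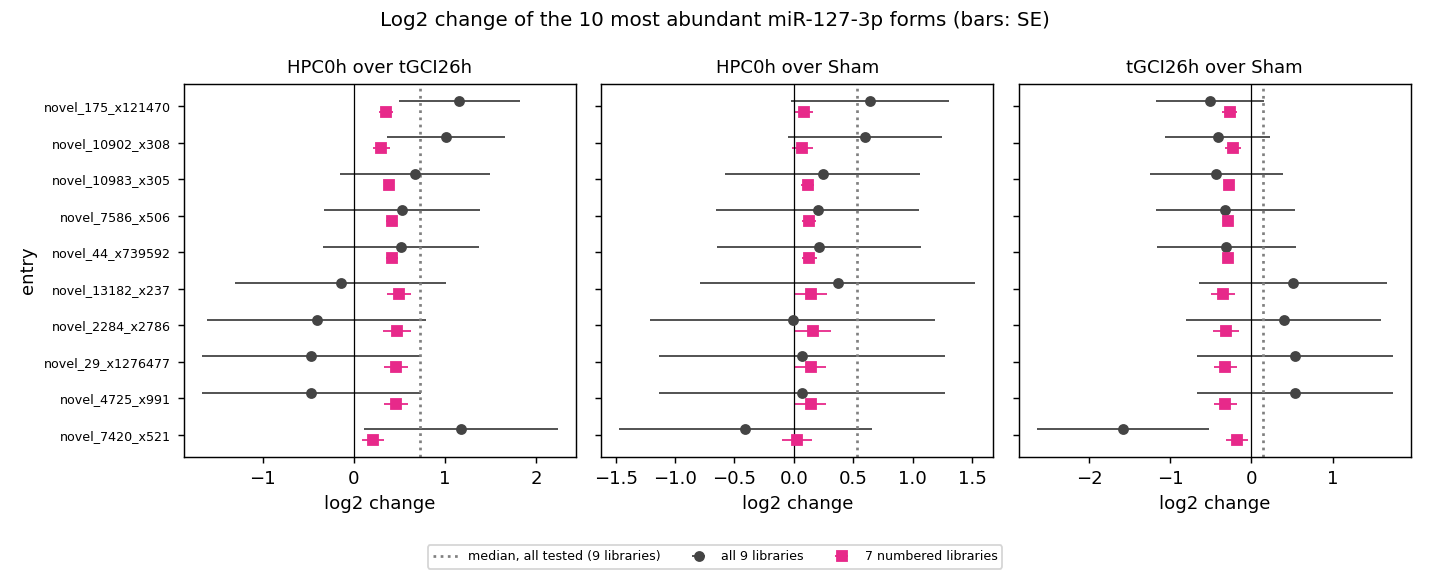
Log2 change (horizontal, on the log2(value + 1) scale) of the 10 most abundant members (vertical) in 3 comparisons, from limma over all 9 libraries (circles) and over the 7 numbered libraries (squares), with SE as bars. The dotted line is the median of all 2824 tested entries in the fit of 9 libraries. In HPC0h over tGCI26h the squares of all 10 members lie above 0, whereas 4 circles, those of novel_13182_x237, novel_2284_x2786, novel_29_x1276477 and novel_4725_x991, lie below it.

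The comparison of tGCI26h with Sham asks what differs at the labelled 26 h after global ischemia. novel_175_x121470 averaged 12322 ± 7947 tags in tGCI26h and 15700 ± 8121 in Sham (SD, n = 3 each), with overlap because Sham u was lower than tGCI26h a and b. Its log2 change was -0.52 ± 0.67 (SE, limma adjusted p = 1), which became 0.29 without tGCI26h u and -1.07 without Sham u. Its direction thus turned with 1 library. In the numbered libraries it averaged 16898 tags in tGCI26h and 20358 in Sham, a log2 change of -0.27 ± 0.09 (limma adjusted p = 0.344), where the median of all entries was 0.21. novel_44_x739592, which did not overlap, held a mean of 485.5 tags in tGCI26h a and b and 391 in tGCI26h u, against 500 to 627 in Sham, with a log2 change of -0.31 ± 0.86 (limma adjusted p = 1) over 9 libraries and -0.29 ± 0.07 (limma adjusted p = 0.236) over 7.

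For some of the scarcer forms the sign depended on tGCI26h u, though not for novel_7420_x521, at -1.58 with all libraries and -0.62 without that library. novel_29_x1276477 had a log2 change of 0.54 ± 1.20 (limma adjusted p = 1) in tGCI26h over Sham with all libraries and -0.39 without tGCI26h u. For novel_13182_x237 the values were 0.52 with all libraries and -0.12 without it, and for novel_2284_x2786 they were 0.40 and -0.48. With all libraries every tGCI26h value lay below every Sham value for 2 of 18 members, novel_44_x739592 and novel_7586_x506, against 2.3% of tested entries, and above for 0, against 2.27%. In novel_29_x1276477, novel_13182_x237 and novel_2284_x2786 tGCI26h u held 161 tags each, above every other library. The last of these forms both contain novel_29_x1276477. Their remainders in tGCI26h u were 0, against 161 for novel_29_x1276477, so these forms are not separate cases. Of the 18 tested members 0 passed in the fit of 9 libraries, as did 0 of 2824 entries (0%), with 39 at an unadjusted p below 0.05. In the numbered libraries 0 of 18 passed as well, where 0.844% of entries did, and 4 had an unadjusted p below 0.05, against 12.6% of entries. There 8 of 18 members had both tGCI26h values below both Sham values, against 7.22% of tested entries, and 0 had them above, against 26% of tested entries. These counts, too, are of members that contain one another and are not separate observations.

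The comparison of HPC0h with Sham gave the smallest differences for the abundant forms in the numbered libraries, though not for scarce ones such as novel_11_x3752964, whose log2 change there was 0.39 in HPC0h over Sham and -0.18 in tGCI26h over Sham. novel_175_x121470 averaged 21589 ± 1543 tags in HPC0h and 15700 ± 8121 in Sham (SD, n = 3 each), with overlap, since Sham a lay within the HPC0h range. Its log2 change of 0.64 ± 0.67 (SE, limma adjusted p = 0.822) rested on Sham u, without which it was 0.08. The 20 nt form novel_44_x739592 averaged 648.7 ± 5.86 tags in HPC0h and 562.7 ± 63.5 in Sham, without overlap, with a log2 change of 0.21 ± 0.86 (limma adjusted p = 0.990). novel_10983_x305 averaged 923 ± 15.6 and 786.7 ± 120 tags in the same order, also without overlap of values (log2 change 0.24 ± 0.82, limma adjusted p = 0.976). Its value includes the 20 nt form inside it, and its remainders overlapped, with 257 to 287 tags in HPC0h and 144 to 261 in Sham. The log2 changes were smaller in the numbered libraries, 0.13 ± 0.06 for novel_44_x739592 (limma adjusted p = 0.458) and 0.12 ± 0.05 for novel_10983_x305 (limma adjusted p = 0.449). Over 9 libraries the values separated without overlap in this direction for 4 of 18 members, against 13% of tested entries, and in reverse for 0, against 0.814%. In limma 0 of 18 members or of 2824 entries (0%) passed, with 21 entries at an unadjusted p below 0.05. In the numbered libraries 0 of 18 passed, where 1.38% of entries did, and 0 had an unadjusted p below 0.05, against 13.4% of entries. There the HPC0h values were all above those of Sham for 4 of 18, against 16.7%, and all below for 0, against 3.72%. Again the members counted contain one another. HPC0h and tGCI26h were both compared with the same Sham libraries, so their changes share that reference.

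Other microRNAs of the Dlk1-Dio3 region gave no call either in the fit of 9 libraries. Of 81 mature sequences of this list in RefSeq, 60 had at least 1 entry by the 16-base rule, 194 entries in all, of which 108 were tested and 0 passed in any comparison. Their median log2 change in HPC0h over tGCI26h was 0.53 (0.72 over all tested entries), in tGCI26h over Sham -0.61 (0.14) and in HPC0h over Sham 0.00 (0.53). With 80 of these entries tested in the numbered libraries, the medians were 0.12 (0.00 over all tested entries), 0.00 (0.21) and 0.093 (0.21) in the same order, so the negative median of tGCI26h over Sham was absent there. Of the remainders of the members and these entries combined, miR-127-3p held 77.99%, 76.8% and 74.0% in HPC0h, 73.3%, 72.4% and 21.2% in tGCI26h, and 77.5%, 73.6% and 53.4% in Sham. The 14 entries of the 5′ arm of the miR-127 hairpin are not in this total, because that mature sequence was not in the reference used. They held 501 to 809 tags by remainders in the numbered libraries, 10549 in tGCI26h u and 1027 in Sham u. In the numbered libraries miR-127-3p was thus the leading microRNA of the region in this table.

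By the mean over 9 libraries the most abundant of the others were miR-379-5p, miR-434-5p, miR-341, miR-329-3p and miR-329-5p. miR-379-5p held remainders of 4744, 4959 and 5818 tags in HPC0h, 5023, 4781 and 0 in tGCI26h, and 4709, 5533 and 2357 in Sham. miR-434-5p, from the hairpin next to that of miR-127, held 1074, 986 and 922 in HPC0h, 840, 938 and 0 in tGCI26h, and 920, 1069 and 591 in Sham. For both, the unnumbered libraries were the lowest, as for miR-127-3p. miR-341 held 843, 783 and 750 in HPC0h, a mean of 594.5 in tGCI26h a and b with 825 in tGCI26h u, and 759, 805 and 234 in Sham. miR-329-3p held 3 to 5 tags in every numbered library, 5930 in tGCI26h u and 123 in Sham u, so its rank rested on tGCI26h u. The next in rank, miR-543-3p, held 664 to 860 tags in the numbered libraries, 0 in tGCI26h u and 245 in Sham u. miR-329-5p held 696, 815 and 581 in HPC0h, 707, 920 and 0 in tGCI26h, and 715, 881 and 353 in Sham, so that its arms, too, exchanged order in tGCI26h u. In the numbered libraries 2 entries of miR-136-3p passed in HPC0h over Sham (limma adjusted p = 0.000599 each) and in HPC0h over tGCI26h (limma adjusted p = 0.00120 each). Both, novel_137_x176898 and novel_3594_x1442, had 2 tags in every HPC0h library and 1 in each of tGCI26h a and b and Sham a and b, so the spread within groups was 0. In the unnumbered libraries novel_3594_x1442 held 1295 tags in tGCI26h u and 275 in Sham u.

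The entries whose profile lay closest to that of novel_11_x3752964 were found by the root mean square difference of centred log2(value + 1) values, among 380 entries outside the family with a mean of at least 100. novel_11_x3752964 itself held at most 9 tags and was blank in tGCI26h u and Sham u. The ranking therefore rests on rounded values near the floor, where a single tag can change the order. Over 9 libraries they were novel_6008_x702 (let-7i-5p) at 0.592, novel_10360_x329 at 0.664, novel_4016_x1232 (miR-128-3p) at 0.681, and novel_1243_x7221 and novel_10737_x315 (both miR-129-5p) at 0.710 and 0.717, where the median entry was at 2.06. All 5 were lower in tGCI26h u and Sham u than in any numbered library. Over the 7 numbered libraries the closest were novel_1010_x9920 (miR-100-5p) at 0.0840, novel_3473_x1520 (miR-145-5p) at 0.0858, novel_9522_x369 (miR-132-3p) at 0.129, novel_6554_x625 (miR-212-3p) at 0.138 and novel_2757_x2131 at 0.172, where the median was 0.359. miR-132-3p and miR-212-3p are known as microRNAs of neuronal activity. novel_9522_x369 held 1000, 1031 and 893 tags in HPC0h, 627 and 764 in tGCI26h a and b, and 814 and 742 in Sham a and b, so that HPC0h was highest and tGCI26h overlapped Sham. In the unnumbered libraries it stood at 0 in tGCI26h u and 905 in Sham u, a value within the numbered range. The other entries of this list held, in tGCI26h u and Sham u, 0 and 422 tags (novel_1010_x9920), 2237 and 570 (novel_3473_x1520), 102 and 362 (novel_6554_x625), and 745 and 0 (novel_2757_x2131). The mean of at least 100 was taken over all 9 libraries. In the numbered libraries novel_3473_x1520 held 27 to 50 tags, novel_6554_x625 held 55 to 106 and novel_2757_x2131 held 18 to 33. These entries thus reached the limit only through the unnumbered libraries. The 2 lists had no entry in common.

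The brain markers looked for were present in all libraries, but the unnumbered libraries differed in these and in other markers. miR-9a-5p remainders were 125494 to 126302 tags in HPC0h, 116783, 116926 and 21131 in tGCI26h, and 130702, 123664 and 143155 in Sham. miR-128-3p held 67976 to 84611 tags in the numbered libraries, 25782 in tGCI26h u and 26873 in Sham u. miR-138-5p held 416 to 845 in the numbered libraries, 1468 in tGCI26h u and 995 in Sham u. miR-124-3p could not be looked for, because its mature sequence was not in the reference used. miR-451-5p, of red blood cells, held 28 to 50 tags in the numbered libraries, 813 in tGCI26h u, and was above every numbered library in Sham u too. The other blood markers did not follow, with miR-144-3p at 0 in all libraries and miR-223-3p at 0 in both unnumbered libraries and at most 1 elsewhere. miR-338-3p, of oligodendrocytes, held 1 to 3 tags in the numbered libraries, 1265 in tGCI26h u and 260 in Sham u, whereas miR-219a-5p, also of oligodendrocytes, held 1 in each numbered library and 0 in both unnumbered ones. miR-126a-3p, of endothelium, held 7188 to 9142 tags in the numbered libraries, 3433 in tGCI26h u and 3292 in Sham u. miR-122-5p of liver and miR-133a-3p of muscle were at 0 or 1 everywhere, and miR-1-3p of muscle held 4 to 11 tags in the numbered libraries, 0 in tGCI26h u and 10 in Sham u. The part of these differences in the miR-127-3p values of tGCI26h u and Sham u was not tested.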

How the data were processed

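Small RNA of CA1 was sequenced in 9 libraries. Per the submitters' processing notes the tools were cutadapt 1.9.3 and Novoalign 3.02.12, without roles. Per the file headers the deposited values are tag counts that the authors normalised, a score rounded to whole numbers. The genome build, catalogue and counting rule are not given in the sources used here. Blank cells were read as 0. A further 11 lines of the table were empty and not analysed here. Sequences of microRNAs were those of RefSeq (GRCr8).

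Members were placed on the hairpin without gaps by their longest shared run. All entries with a mean of at least 1 were fitted with limma 3.58.1 (R 4.3.3) on log2(value + 1), with trend, all 3 groups sharing 1 model, and p-values adjusted by Benjamini-Hochberg (threshold 0.05), after a test on simulated data. Folds of low entries are understated on this scale. Other figures came from Python 3.11.15. No p was computed for sums or shares. The text names the 10 most abundant members and novel_11_x3752964. The members and lists were chosen with earlier results of these data known, and remainders were added after the values had been seen.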

Additional observations from a re-analysis of the deposited data

How the results depend on the processing

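Depth is unknown and 3 libraries a group limit every test. No paired analysis was possible because the columns carry no replicate numbers. Calls over all entries, 0 in each comparison, stayed at 0 when any 1 library was left out. In tGCI26h over Sham they became 3 with blanks as missing and 22 in the numbered libraries, in HPC0h over Sham 3 without a filter, 8 with only the groups compared, 3 with blanks as missing and 36 in the numbered libraries, and in HPC0h over tGCI26h 3, 2, 1 and 12 in the same order, none of them a member named in the report. Quantile normalisation moved the median of all entries from 0.14 to -0.03 in tGCI26h over Sham.

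With 1 library left out, novel_11_x3752964 ranged from -1.08 to 0.78 (log2) in tGCI26h over Sham, where it was -0.12, and was positive without tGCI26h u (0.78), Sham a (0.51) or Sham b (0.21). There novel_175_x121470 ranged from -1.07 to 0.29, novel_10902_x308 from -0.94 to 0.30, novel_13182_x237 from -0.12 to 0.90, novel_2284_x2786 from -0.48 to 0.89, and novel_29_x1276477 and novel_4725_x991 from -0.39 to 1.05. In HPC0h over Sham the ranges were -0.20 to 0.16 for novel_2284_x2786, -0.051 to 0.14 for novel_29_x1276477 and novel_4725_x991, and -0.67 to 0.028 for novel_7420_x521. In HPC0h over tGCI26h they were -0.53 to 0.49 for novel_13182_x237, -0.90 to 0.47 for novel_2284_x2786, and -0.98 to 0.46 for novel_29_x1276477 and novel_4725_x991. Signs also turned in the numbered libraries in tGCI26h over Sham, to -0.35 for novel_13182_x237, -0.31 for novel_2284_x2786 and -0.32 for novel_29_x1276477 and novel_4725_x991. With quantile normalisation these last 3 stood at -0.33, -0.27 and -0.27, and with median-of-ratios scaling novel_2284_x2786 stood at -0.087. In HPC0h over Sham novel_2284_x2786 turned to 0.16 in the numbered libraries, 0.049 with quantile normalisation and 0.28 with median-of-ratios scaling, and novel_7420_x521 to 0.028 in the numbered libraries. In HPC0h over tGCI26h the numbered libraries gave 0.49 for novel_13182_x237, 0.47 for novel_2284_x2786 and 0.46 for novel_29_x1276477 and novel_4725_x991. Quantile normalisation gave 0.45, 0.38 and 0.37, and median-of-ratios scaling 0.63, 0.37 and 0.31. The turns follow tGCI26h u and Sham u where those were left out, and otherwise the cause was not tested.

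On values in place of remainders, the mature 5′ end held 95.6%, 92.3% and 93.7% of the sum in HPC0h, tGCI26h and Sham, against 99.2%, 99.4% and 98.9% on remainders. The leading 3′ end held 93.6%, 87.9% and 91.0%, against 97.2%, 95.8% and 96.1%. The difference arises because remainders subtract the listed entries that a member contains. Whether the authors counted a tag in several entries is not stated. With 1 library left out the summed values differed by -0.92 to 0.24 (log2) in tGCI26h over Sham.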
